A study of Drosophila montana and Drosophila virilis with 24 samples.

Results

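Dca and Fst are 2 genes named in fruit flies for their link to cold, and both were among the 218 genes named on a custom array used on Drosophila montana and Drosophila virilis. Every probe that was not a control and whose name carried either gene was taken, which gave 24 of the 1850 probes. These are 8 pairs of probes for Dca and 4 pairs for Fst, each pair holding the same fragment in both orientations, forward and reverse complement. The orientation with the higher mean signal over all 24 arrays stood for the pair, and a gene's level is the mean over its pairs.

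Dca was named for cold acclimation in Drosophila melanogaster and encodes a protein of the regucalcin family, whose members bind calcium. Fst, or Frost, is known in D. melanogaster as a gene whose transcript accumulates while flies recover from cold, and its protein is predicted to be secreted. Cold stalls ion pumps in insects, so that muscles and nerves lose their gradients and the animal falls into chill coma, a reversible paralysis. In D. montana, Fst is listed once in the RefSeq gene table of assembly ASM3504440v1. Its interval lies inside that of Dh44, a diuretic hormone gene, among rows with ascending starts. That table names neither chromosome nor strand, and no row in it is named Dca.

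All flies were mature females 20 days old with 22 h of light and 2 h of darkness, and RNA came from whole bodies in pools of 10 flies, with 3 pools and 3 arrays per group. The labels name species but no strain. Cold-acclimated flies of both species spent 14 days in control conditions and 6 days at 5°C, and cold-hardened flies of both species spent 1 h at 0°C. D. montana alone was also held at -6°C for 16 h and sampled 15 min or 1 h after the start of recovery from chill coma. Controls of each species stayed at 19°C. In whole bodies, fewer cells that express a gene and less RNA per cell cannot be told apart.

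On the 24 arrays, 72.2% to 83.1% of spots were well above background, 0 spots were saturated, and the 75th percentile of the signal ran from 413 to 883 units. It was 413 to 678 on the 6 recovery arrays and 658 or more on the others. Levels below are log2 processed signal minus that percentile, so that 0 is the array's 75th percentile and 1 unit is a doubling. They are compared within a gene and a species, because probes can match the species unequally. Changes are log2 differences ± SE with n = 3 arrays per group. P-values come from limma and were adjusted by Benjamini and Hochberg's method over all genes tested, with a threshold of 0.05. The number of arrays limits the precision. Where groups are said to overlap or not, the share of all genes that did so is not given. Each comparison with a species' control shares those 3 control arrays with the others.

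In D. montana, Dca fell after acclimation. Its level was 3.23, 3.68 and 3.29 on the acclimated arrays, against 4.18, 3.97 and 4.50 on control arrays. All 3 acclimated arrays lay below all 3 controls. The means were 3.40 ± 0.24 in acclimated flies and 4.22 ± 0.27 in controls (SD, n = 3 each), a change of -0.82 ± 0.22, or 1.76-fold lower (adjusted p = 0.0122). Of the 214 genes tested in this comparison 26.6% passed, 16.8% as lower, and Dca ranked 22 by size of change. On a single probe, the reverse-complement one of pair Dca_1_1b, the signal was 12262, 18147 and 12314 units in acclimated flies and 28649.5, 20861 and 29685 units in controls. Arrays of different groups shared slides, and within slides 1, 2 and 3 the change in Dca was -0.95, -0.83 and -0.68. The call was lost without control replicate 3 (-0.68, adjusted p = 0.0610), with scaling to spike-in RNA (-0.75, adjusted p = 0.0501) and with another background correction, normexp (-0.82, adjusted p = 0.338).

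**Figure D1:**
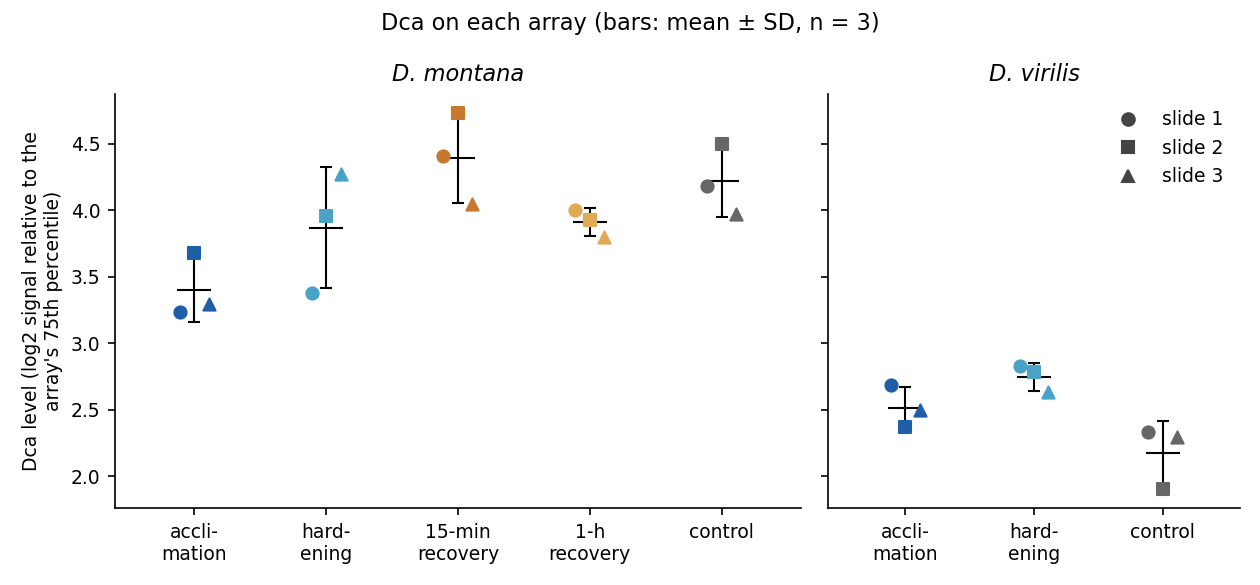
Level of Dca on each array (points, shaped by slide) as log2 signal relative to the array's 75th percentile, with group mean ± SD, for D. montana on the left and D. virilis on the right. Acclimated D. montana lay below its controls (means 3.40 and 4.22), while both cold groups of D. virilis lay above theirs (2.51 and 2.75, against 2.18).

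Dca of D. montana did not pass after short cold. After hardening the level was 3.38, 3.96 and 4.28, against the control values given above, and the groups overlapped. The change was -0.35 ± 0.22 (adjusted p = 0.600), in a comparison that 0.467% of genes passed. It was uneven across slides, at -0.81, -0.55 and 0.30.

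During recovery from chill coma Dca stood at 4.41, 4.73 and 4.05 after 15 min and at 4.00, 3.93 and 3.80 after 1 h. Both groups overlapped the controls. The change against controls was 0.18 ± 0.22 at 15 min (adjusted p = 0.603, 6.54% of genes passed) and -0.31 ± 0.22 at 1 h (adjusted p = 0.497, 2.8% passed). With normexp the change at 1 h was -0.85 (adjusted p = 0.201), beside -0.82 after acclimation, and averaged over both orientations it turned to 0.00067. The 3 arrays at 1 h all lay below the 3 at 15 min. That difference was -0.49 ± 0.22, ranked 11 of 214 by size, and did not pass (adjusted p = 0.487, 1.87% of genes passed). Within slides 1, 2 and 3 it was -0.40, -0.80 and -0.25.

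Ordered by mean, Dca of D. montana was 4.40 ± 0.34 at 15 min of recovery, 4.22 ± 0.27 in controls, 3.91 ± 0.11 at 1 h of recovery, 3.87 ± 0.46 after hardening and 3.40 ± 0.24 after acclimation (SD, n = 3 each). The arrays of each group overlapped those of its neighbour in this order, and with normexp the change was larger at 1 h of recovery than after acclimation.

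In D. virilis, Dca lay above its controls in both cold groups. Acclimated flies had levels of 2.68, 2.37 and 2.49, hardened flies 2.83, 2.78 and 2.63, and control flies 2.33, 1.90 and 2.30. Neither cold group overlapped the controls, though they overlapped each other. The means were 2.51 ± 0.16 after acclimation, 2.75 ± 0.10 after hardening and 2.18 ± 0.24 in controls (SD, n = 3 each).

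The change in acclimated D. virilis was 0.34 ± 0.13, or 1.26-fold (adjusted p = 0.0538), and it did not pass in a comparison that 39.3% of 211 genes passed. In hardened D. virilis it was 0.57 ± 0.13, or 1.48-fold (adjusted p = 0.0731), where 0.474% of genes passed and Dca ranked 4 of 211 by size. The change had 1 direction on slides 1, 2 and 3, with 0.35, 0.47 and 0.20 after acclimation and 0.50, 0.88 and 0.33 after hardening. With slide as a block, which in D. virilis is the same as the replicate number, both passed (adjusted p = 0.0286 after acclimation and 0.0252 after hardening). Dca also passed with quantile normalization, at 0.45 after acclimation (adjusted p = 0.0134) and 0.68 after hardening (adjusted p = 0.0319). In the authors' processed values it passed at 0.44 after acclimation (adjusted p = 0.0120) and 0.68 after hardening (adjusted p = 0.0176). Averaged over both orientations of each pair, the acclimation change turned to -0.05 (adjusted p = 0.707).

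The acclimation response of Dca differed between the species. Dca changed by -0.82 in D. montana and by 0.34 in D. virilis, and the difference, D. montana minus D. virilis, was -1.16 ± 0.28 (adjusted p = 0.00964). Of 210 genes 12.4% passed this test, 8.1% towards a lower response in D. montana, and Dca ranked 5 by size. The difference was -1.30, -1.29 and -0.88 on slides 1, 2 and 3. It passed without any 1 of the 12 arrays, at -1.29 to -1.02. It did not pass with spike-in scaling (-1.10, adjusted p = 0.0589), with normexp (-1.33, adjusted p = 0.214) or when both orientations of each pair were averaged (-0.56, adjusted p = 0.129).

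For hardening the corresponding difference in Dca was -0.92 ± 0.28, which ranked 3 of 210 by size and did not pass (adjusted p = 0.127, 0.476% of genes passed). It was -1.31, -1.43 and -0.03 on slides 1, 2 and 3, and it passed without D. montana hardening replicate 3 (-1.12, adjusted p = 0.0360).

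The 8 brighter probes of Dca moved together. In acclimated D. montana their changes ran from -0.86 to -0.79, and all 8 passed when single probes were tested (adjusted p = 0.0159 to 0.0340 over 1485 probes, of which 15.9% passed). The SD among the 8 changes was 0.020, against a median of 0.080 over the 174 genes with at least 3 probes. It was nearer the median elsewhere, at 0.094 against 0.074 at 15 min of recovery and 0.062 against 0.067 at 1 h. In acclimated D. virilis it was 0.038 against 0.044. The 8 probes read the same RNA pools and are not replicates. They cover both named fragments of the gene, of which fragment 1 gave its signal in 1 orientation and fragment 2 in the other. In hardened D. virilis the same probes ran from 0.56 to 0.60. In acclimated D. virilis they ran from 0.27 to 0.38, and 1 of the 8 passed (30.2% of 1426 probes did).

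The dimmer orientation of the Dca pairs did not follow the brighter one in acclimated D. virilis. The orientations of a pair were 3.59 to 8.31 log2 units apart in D. montana and 1.88 to 6.80 apart in D. virilis. The dimmer probes of Dca read 40.5 to 416 units in D. virilis, and all of their spots were well above background. On pair Dca_1_1b the dimmer probe read 50.1 to 59.2 units in acclimated D. virilis and 78.9 to 86.2 units in controls. All 8 dimmer probes fell there, with changes of -0.57 to -0.32 (adjusted p = 0.000502 to 0.0187), while the 8 brighter probes were at 0.27 to 0.38. Over all 578 dimmer probes tested in that comparison the median was -0.06.

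Tested as a change in the difference between the orientations of a pair, all 8 Dca pairs passed in acclimated D. virilis, with sizes of 0.62 to 0.95 (adjusted p = 0.000409 to 0.00169, 23.4% of 576 pairs passed). In acclimated D. montana both orientations were below 0, the dimmer at -0.77 to -0.18, and 0 of the 8 pairs passed in limma (0 also at an unadjusted p under 0.05, 6.12% of 621 pairs passed). The test between species passed for 5 of the 8 pairs (3.61% of 554 pairs passed). On the brighter probes alone the species difference in acclimation ran from -1.19 to -1.12 and passed for all 8, where 7.7% of 1389 probes passed. On the recovery arrays the dimmer probes of Dca were at 0.15 to 0.83 after 15 min, beside a median of 0.26 over all 622 dimmer probes. After 1 h they ran from -0.11 to 0.63, beside a median of 0.35, while the brighter probes ran from -0.40 to -0.22. The difference between orientations then changed by 0.28 to 0.93 in size, and 0 of the 8 pairs passed in limma (adjusted p = 0.206 to 0.422, 2 of 621 pairs passed). At an unadjusted p under 0.05 there were 6 of the 8. In hardened D. virilis the sizes were 0.35 to 0.54, and 0 of the 8 pairs passed (0 of 576 pairs passed). All 8 had an unadjusted p under 0.05 there. The share of all pairs with such a p is not given.

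**Figure D2:**
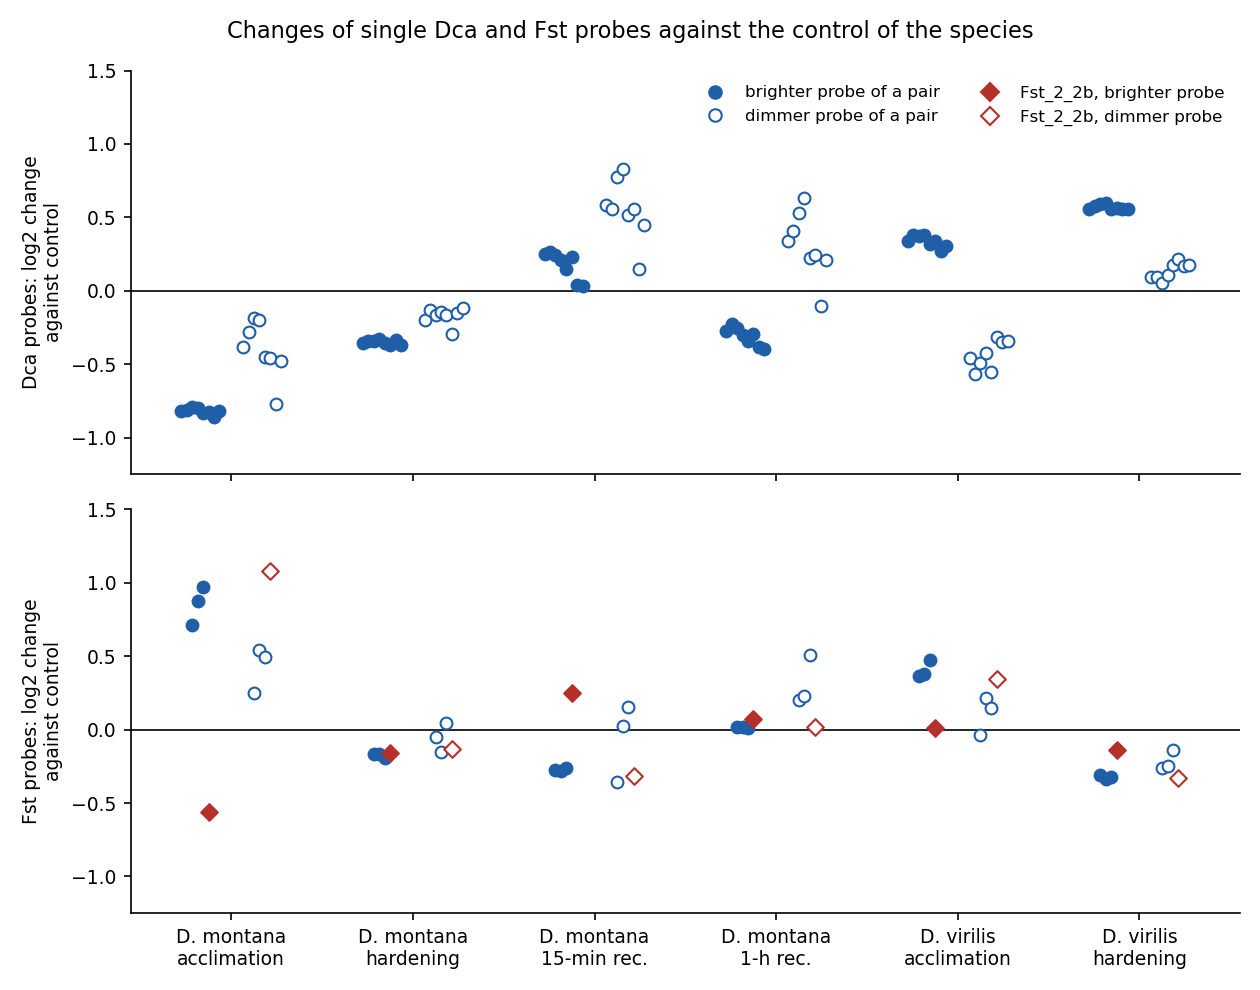
Log2 change of each Dca probe (above) and Fst probe (below) against the control of the species, with filled points for the brighter and open points for the dimmer orientation of a pair, and diamonds for pair Fst_2_2b. In acclimated D. virilis the open Dca points lie below 0 and the filled ones above; in acclimated D. montana the filled Fst_2_2b diamond (-0.56) lies apart from the other Fst points.

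Fst passed in no comparison with a control. In D. montana its level was 0.71, 0.87 and 0.20 after acclimation, against 0.42, -0.48 and 0.34 in controls. The 2 highest values were acclimated arrays, and the groups overlapped. The means were 0.60 ± 0.35 in acclimated flies and 0.10 ± 0.50 in controls (SD, n = 3 each), a change of 0.50 ± 0.27 (adjusted p = 0.189). It was 0.29, 0.53 and 0.68 on slides 1, 2 and 3, and 0.21 to 0.69 with 1 array left out, lowest without control replicate 2.

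In hardened D. montana Fst was at -0.54, 0.18 and 0.14, a change of -0.17 ± 0.27 (adjusted p = 0.797). After 15 min of recovery it was at 0.06, 0.20 and -0.40, a change of -0.14 ± 0.27 (adjusted p = 0.733). After 1 h of recovery it was at 0.23, 0.43 and -0.29, a change of 0.03 ± 0.27 (adjusted p = 0.964). All 3 groups overlapped the controls. The 1 h arrays were 0.17 ± 0.27 above the 15 min arrays (adjusted p = 0.971). The 95% interval of the change at 1 h ran from -0.54 to 0.60, and that at 15 min from -0.71 to 0.43, so a rise of 1 unit, which is a doubling, lies outside both.

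In D. virilis Fst was at 0.92, 0.76 and 0.58 after acclimation, at 0.33, 0.14 and 0.04 after hardening and at 0.77, 0.04 and 0.53 in controls. The controls spanned the whole range of the hardened arrays and overlapped the acclimated ones. The change was 0.31 ± 0.17 after acclimation (adjusted p = 0.166) and -0.28 ± 0.17 after hardening (adjusted p = 0.543). Without control replicate 1 the acclimation change was 0.47 and passed (adjusted p = 0.0359). The differences between species, D. montana minus D. virilis, were 0.19 ± 0.36 for acclimation and 0.11 ± 0.36 for hardening (adjusted p = 0.833 and 0.878). Pair Fst_2_2b enters all these levels by its forward probe, which is the dimmer one in D. virilis. Without that pair the D. virilis changes were 0.41 ± 0.20 after acclimation and -0.32 ± 0.20 after hardening (adjusted p = 0.132 and 0.570 in limma).

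By mean, Fst of D. montana was 0.60 ± 0.35 after acclimation, 0.12 ± 0.37 at 1 h of recovery, 0.10 ± 0.50 in controls, -0.05 ± 0.31 at 15 min of recovery and -0.07 ± 0.40 after hardening. In D. virilis it was 0.75 ± 0.17 after acclimation, 0.45 ± 0.37 in controls and 0.17 ± 0.14 after hardening. Neighbouring groups overlapped in both orders.

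**Figure D3:**
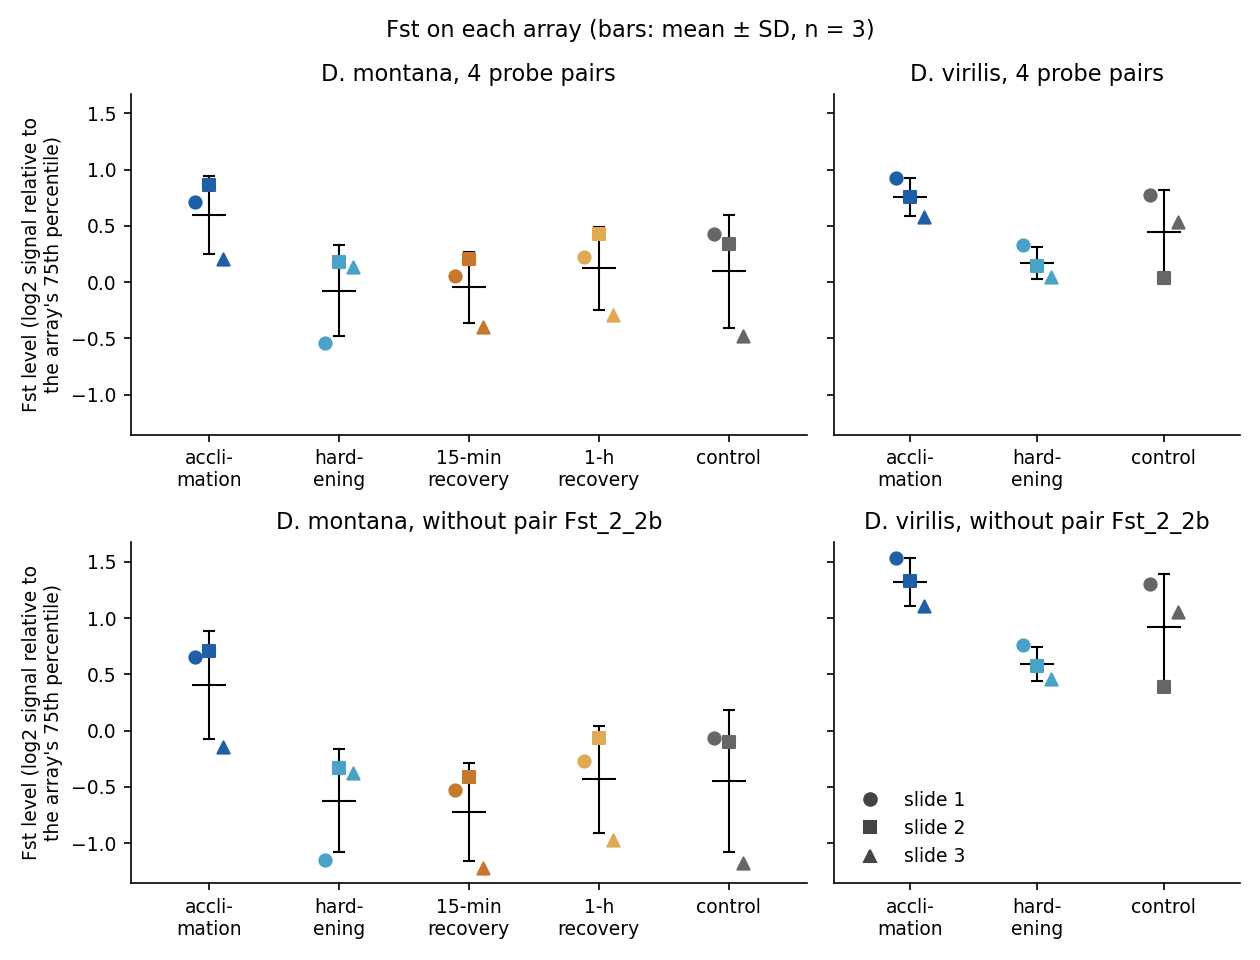
Level of Fst on each array (points, shaped by slide) as log2 signal relative to the array's 75th percentile, with group mean ± SD, over all 4 probe pairs (above) and without pair Fst_2_2b (below). The acclimated D. montana mean is 0.60 with all pairs, against 0.10 in controls, and 0.41 without that pair, against -0.45 in controls.

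The 4 pairs of Fst did not behave alike. Pair Fst_2_2b was brighter in its forward orientation in D. montana, by 2.51 log2 units, and in its reverse complement in D. virilis, where forward minus reverse complement was -2.34. The other 3 Fst pairs, and all 8 of Dca, were brighter in the same orientation in both species. Of the 925 pairs on the array, 4 changed their brighter orientation between the species with a gap over 1 unit in each, in the genes FKBP59, Gbeta76C, Hsp60B and Fst.

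The gap between the orientations of Fst_2_2b narrowed in acclimated D. montana. Forward minus reverse complement was 0.19, 1.14 and 1.92 log2 units in acclimated flies, against 2.48, 3.33 and 2.37 in controls. The forward probe read 1253, 1893 and 1582 units in acclimated flies, against 3092, 2153 and 2269 units in controls. Its reverse complement read 1102, 859.9 and 418 units in acclimated flies, against 555, 215 and 439.7 units in controls. The forward probe was lower on every acclimated array than on any control array, and the reverse complement overlapped.

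The forward probe changed by -0.56 ± 0.16 (adjusted p = 0.0254 over 1485 probes). The reverse complement was at 1.08 ± 0.37 (adjusted p = 0.0619), close to the other brighter probes of Fst, which were at 0.71, 0.88 and 0.97 and did not pass. The difference between the orientations of Fst_2_2b changed by -1.64 ± 0.39 (adjusted p = 0.0207), rank 9 by size among 621 pairs. With this pair included, the SD of the 4 brighter probes' changes was 0.72, rank 4 of 174 genes. The forward probe, which is the weaker one in D. virilis, was at 0.01 ± 0.09 and the reverse complement at 0.34 ± 0.21 in acclimated flies of that species. The orientation difference of this pair did not pass between species (-1.31 ± 0.49, adjusted p = 0.210).

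After hardening and at both recovery times, forward minus reverse complement of Fst_2_2b was 2.53 to 3.91 log2 units in D. montana. After hardening the forward probe read 2159 to 2180 units and the reverse complement 274 to 378 units. After 15 min of recovery these were 1987 to 2376 and 136 to 321 units, and after 1 h 1392 to 1960.0 and 149.7 to 339 units, on arrays whose 75th percentile was lower.

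**Figure D4:**
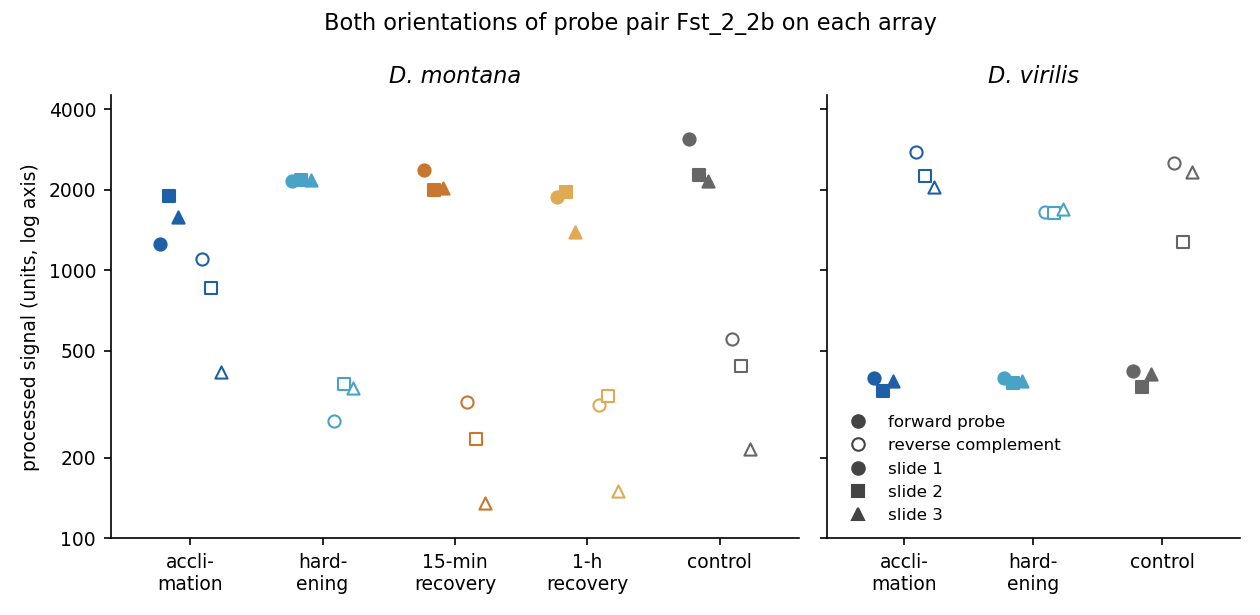
Processed signal (units, log axis) of the forward probe (filled) and the reverse complement (open) of pair Fst_2_2b on each array, shaped by slide. In D. montana controls the forward probe read 2153 to 3092 units and the reverse complement 215 to 555; in acclimated D. montana they lay closer, at 1253 to 1893 and 418 to 1102, and in D. virilis the reverse complement was the brighter one throughout.

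Without Fst_2_2b, an alternative chosen after its values were seen, the change of Fst in acclimated D. montana was 0.85 ± 0.34, or 1.81-fold (adjusted p = 0.0737). The levels were 0.66, 0.71 and -0.15 in acclimated flies, against -0.06, -1.18 and -0.10 in controls, so that 2 acclimated arrays lay above all controls. Control replicate 2 and acclimation replicate 3, the lowest of their groups, were on slide 3. Within slides 1, 2 and 3 the change was 0.72, 0.81 and 1.03, and with slide as a block it passed (0.85 ± 0.25, adjusted p = 0.0242). With the replicate number as a block, which pairs other arrays, it did not (adjusted p = 0.0839). In acclimated D. virilis the change without this pair was 0.41 ± 0.20 (adjusted p = 0.132), at 0.23, 0.94 and 0.05 on slides 1, 2 and 3. At 15 min and 1 h of recovery it was -0.27 ± 0.34 and 0.01 ± 0.34 (adjusted p = 0.601 and 0.985).

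The genes nearest to each member were found by the root mean square difference between their 6 changes against controls, 4 in D. montana and 2 in D. virilis, over 210 genes. Nearest to Dca were ninaD, a scavenger receptor gene for carotenoid uptake (0.21), the stress kinase gene p38a (0.27) and the arrestin gene Arr2 (0.29), against a median of 0.55 over all genes. In acclimated D. montana these 3 were at -0.53, -0.85 and -0.86, where Dca was at -0.82. In hardened D. virilis ninaD was at 0.68, near the 0.57 of Dca, while p38a and Arr2 were at 0.11 and -0.11. Nearest to Fst were the opsin gene Rh5 (0.15), CG7182 (0.19) and the giant muscle protein gene sls (0.20), against a median of 0.38. Small distances to Fst are distances to a gene with small changes.

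Some other cold candidates had larger changes than Dca and Fst. Of 8 tested, 3 rose in acclimated D. montana: hsr-omega, a noncoding RNA of the heat shock response (2.07 ± 0.18), the chaperone gene Hsp68 (1.16 ± 0.15) and the co-chaperone gene stv (0.89 ± 0.13). The fatty acid desaturase genes desat1 (-1.86 ± 0.20) and desat2 (-1.53 ± 0.21) fell, and the median of the 8 was -0.14, against 0.00092 over all genes, of which 26.6% passed. At 1 h of recovery hsr-omega (1.63 ± 0.18), Hsp68 (1.26 ± 0.15) and stv (1.03 ± 0.13) rose and 0 fell, in a comparison that 2.8% of all genes passed and where neither Dca nor Fst passed. Between 15 min and 1 h the same 3 genes rose, by 1.83, 1.25 and 0.82, where 1.87% of all genes passed. At 15 min 0 of the 8 passed in limma, where 6.54% of all genes passed. In both hardening comparisons 0 passed too, where 0.467% of all genes passed in D. montana and 0.474% in D. virilis. At 15 min desat1, Hsp26 and Hsp83 had an unadjusted p under 0.05, as had 54 of all 214 genes. After hardening such a p was found for hsr-omega in D. montana (15 of 214 genes). In hardened D. virilis desat1, desat2, Hsp26 and Hsp68 had one (22 of 211 genes).

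In acclimated D. virilis rises in hsr-omega (2.85 ± 0.08) and stv (0.69 ± 0.09) stood beside falls in desat1 (-0.85 ± 0.12) and desat2 (-1.37 ± 0.16), where 39.3% of all genes passed. For the response to acclimation between species, D. montana minus D. virilis, Hsp68 was higher (1.13 ± 0.19), and desat1 (-1.01 ± 0.25) and hsr-omega (-0.77 ± 0.21) were lower, as Dca was, where 12.4% of all genes passed.

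Calcium and excitability genes, listed because regucalcins bind calcium, gave 0 rises and 3 falls among 12 in acclimated D. montana. These were the calcium channel gene cac (-0.80 ± 0.17) and the potassium channel genes slo (-0.60 ± 0.18) and eag (-0.54 ± 0.19), and the list's median was -0.15. Over all genes 26.6% passed, 16.8% as lower, and whether 3 falls of 12 exceed that share was not tested. In acclimated D. virilis, where the Dca change was positive, 3 of 10 fell, and the list's median was 0.02. They were cac (-0.78 ± 0.15), the calmodulin-dependent kinase gene CaMKII (-0.37 ± 0.09) and the calmodulin gene Cam (-0.30 ± 0.09). Over all genes 39.3% passed in this comparison, and 37.3% of those were higher. At 15 min of recovery cac alone of the 12 passed, as a fall (-0.72 ± 0.17), where 6.54% of all genes passed. At 1 h 0 of the list passed, where 2.8% of all genes did. After hardening 0 passed in either species, where 0.467% of all genes passed in D. montana and 0.474% in D. virilis.

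Marker genes of tissues were counted beside Dca and Fst. Of 6 photoreceptor markers 1 fell in acclimated D. montana, Arr2 (-0.86 ± 0.18), and the list ran from -0.86 to 0.31, where 16.8% of all genes fell. In acclimated D. virilis the opsin genes Rh3 (1.11 ± 0.14) and Rh4 (1.02 ± 0.16) rose, and the list ran from 0.03 to 1.11. There 39.3% of all genes passed, and 37.3% of those were higher. Arr2, Rh3 and Rh4 also differed between the species (-1.09, -0.88 and -0.93, with 12.4% of all genes passing, 8.1% as lower). Of the 2 muscle markers on the array, sls and the muscle myosin gene Mhc, Mhc rose in acclimated D. virilis (0.57 ± 0.12), and in acclimated D. montana they were at 0.19 and 0.24. None of the 5 fat body markers and none of the 4 male germline markers listed was on the array. The part of these tissues in the changes of Dca and Fst was not tested.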

How the data were processed

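The arrays were 1-colour (Cy3) custom Agilent arrays of 15336 spots, 14800 of them for 1850 probes with 8 spots each. The authors deposited each array's scanner output with intensities per spot and flags, made with version 10.7.1.1 of Feature Extraction as the file headers say. Its processed signal has background removed but is not normalized between arrays. A second deposited file holds the authors' own processed intensity per probe, on a linear scale (column medians 69.4 to 72.7), and the sources used here do not give how it was normalized. The submitters' processing notes name limma. Rows of that file were matched to probes by name order (lowest correlation with an array's scanner values 0.996) and used as an alternative.

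Spots with an outlier flag (87 to 261 per array) were left out, log2 intensities from the deposited signals were averaged over spots, and each array's 75th percentile over probes was subtracted. Probes entered where a share of 0.5 or more of their spots was well above background on all 3 arrays of a group. Models were fitted with limma 3.58.1 in R 4.3.3 on 15 D. montana arrays, 9 D. virilis arrays or all 24 for species differences, over 214, 211 and 210 genes, and tested on simulated data. Replicates are separate pools, per the labels. Slides, from the scanner files, equal replicate numbers except in D. montana controls, where slides 2 and 3 hold replicates 3 and 2.

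The members and all lists were chosen with earlier results of these data known. The cold list held 11 candidates under names other than those of the members, 8 of them on the array. The calcium list held 19 calcium and excitability genes, 12 of them on the array. Markers were of muscle, photoreceptors, fat body and male germline. Named were both members with every probe, the 3 genes nearest to each by their changes, and list members past the threshold, up to 4 per comparison by adjusted p. FKBP59, Gbeta76C and Hsp60B were named after their values were seen.

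Alternatives were a replicate block, scaling to 8 of 10 spike-in probes, quantile normalization, normexp (offset 50) on median foreground and background signals, no filter, both orientations averaged, the median over probes, the authors' values, only the groups compared and each array left out. Added after the data were seen were a slide block, orientation chosen within a species, Fst without pair Fst_2_2b, and tests of single probes and of pairs. Of 218 gene names, 159 matched the RefSeq table, used for names and neighbours only. Probe sequences and genome positions were not used here.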

Additional observations from a re-analysis of the deposited data

Results flagged for a closer look

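The acclimation response of Dca differed between the species by a test of the difference itself. The change was -0.82 in D. montana and 0.34 in D. virilis, a difference of -1.16 ± 0.28 (interaction term in limma, adjusted p = 0.00964, n = 3 arrays per group). It had the same direction on all 3 slides and on all 8 brighter probes, where it ran from -1.19 to -1.12. The gene's value is the mean of these 8 probes on the same arrays, so their agreement is not separate evidence. On the 8 dimmer probes the difference ran from -0.42 to 0.31, and 0 of them passed (0 also at an unadjusted p under 0.05). The probes' match to each species was not tested.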

How the results depend on the processing

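For Dca, 82 of 99 values under settings that kept all arrays had the same direction and side of the threshold as reported, as had 61 of 66 with 1 array left out. For Fst these were 121 of 126 and 54 of 66. Same-numbered arrays of different groups had a mean correlation of deviations of 0.0012 over 84 pairs. Single pairs ran from -0.48 to 0.55, and 29 were over 0.1. For arrays of different groups on the same slide the mean was -0.015, and 23 of 84 pairs were over 0.1. These means pool all groups of both species, so they do not decide whether arrays were paired within a comparison. The replicate numbers are those of the sample titles. For the 1 h recovery arrays another label counts on from the 15 min arrays, so that these arrays may share no number with the rest. With the replicate block Dca passed at 0.34 and 0.57 in acclimated and hardened D. virilis (adjusted p = 0.0286 and 0.0252), as with the slide block, and the block changed no other call of either gene in all 4 pairs of Fst. Genes passing numbered 27 at 15 min of recovery, 14 at 1 h and 4 in hardened D. virilis with the replicate block, and 30, 14 and 4 with the slide block, against 14, 6 and 1 as reported. The slide block without pair Fst_2_2b gave the call of Fst in acclimated D. montana (0.85). Spike-in scaling ended the Dca calls in acclimated D. montana (-0.75) and between species (-1.10), gave one in hardened D. virilis (0.63), and turned Fst at 1 h of recovery (-0.12) and in the species difference in hardening (-0.14). It moved the median of all genes to -0.15, -0.10 and -0.20 in hardened, 15 min and 1 h D. montana. In the hardening difference the median moved to -0.15. Spike-in scaling subtracts 1 value per array, as the reported scaling does. A gene's change relative to the median of all genes is therefore the same under both and tests neither. Under spike-in scaling 27 genes passed in acclimated D. montana (51.9% higher, against 36.8%) and 5 at 15 min. In D. virilis 36 passed after acclimation (63.9% higher, against 37.3%) and 4 after hardening. In the species differences 4 passed for acclimation (50% higher, against 34.6%) and 2 for hardening. Normexp ended the Dca calls at -0.82 and -1.33 and turned Dca at 15 min of recovery (-0.13), with 11, 0, 1, 2 and 1 genes passing in acclimated, hardened, 15 min, 1 h and 1 h against 15 min D. montana, 16 and 0 in acclimated and hardened D. virilis and 0 and 0 in the species differences. Averaging both orientations gave -0.56 for the species difference of Dca, -0.050 in acclimated D. virilis and 0.00067 at 1 h of recovery, with 0 genes passing in hardened D. virilis and 0 in the hardening difference. Quantile normalization gave Dca calls in D. virilis (0.45 and 0.68), turned Fst at 1 h (-0.040) and passed 2 genes in each of hardened D. virilis and the hardening difference. The authors' values did likewise (0.44, 0.68, -0.047, and 2 and 2 genes). With only the groups compared, 24 genes passed at 15 min and 0 in hardened D. montana, in hardened D. virilis and in the hardening difference. The causes were not tested.

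With 1 array left out, Dca ran from -0.96 to -0.68 in acclimated, -0.55 to -0.10 in hardened, 0.0085 to 0.35 in 15 min and -0.43 to -0.17 in 1 h D. montana, -0.66 to -0.32 between the recovery times, 0.20 to 0.42 and 0.43 to 0.65 in acclimated and hardened D. virilis, and -1.12 to -0.67 in the hardening difference. Calls in D. virilis were gained without control replicate 1 (0.42 and 0.65) or acclimation replicate 2 (0.41). Fst ran from 0.21 to 0.69 in acclimated and -0.46 to 0.063 in hardened D. montana, -0.43 to 0.035 at 15 min, -0.26 to 0.23 at 1 h, -0.0071 to 0.37 between them, 0.10 to 0.47 and -0.48 to -0.11 in acclimated and hardened D. virilis, and -0.095 to 0.40 and -0.18 to 0.34 in the species differences for acclimation and hardening. The genes passing ran from 34 to 45, 0 to 2, 1 to 29, 6 to 7 and 4 to 5 in acclimated, hardened, 15 min, 1 h and 1 h against 15 min D. montana, 58 to 95 and 0 to 7 in acclimated and hardened D. virilis, and 15 to 28 and 0 to 3 in the species differences. With 3 arrays per group, the SE of a change in Fst was 0.27 in D. montana and 0.17 in D. virilis, which limits the size of change that could pass.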
